A study of Mus musculus with 2 samples.

Results

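The microRNA cluster in the Sfmbt2 gene was described in small RNA of the mouse cerebral cortex. Its members were picked by a rule on the annotation that uses no count. They are the microRNA genes of GENCODE M21 (mouse build mm10) that lie wholly within Sfmbt2, on its strand, and carry a symbol that starts with Mir. The rule gave 71 of the 2202 loci in the count tables, and all of them are loci of the name families Mir297 (5 loci), Mir466 (23), Mir467 (14) and Mir669 (29). A further 48 microRNA loci inside the gene carry Gm symbols and are not members.

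RNA shorter than 30 nt came from left cerebral cortex of female B6CASTF1/J mice aged 14 day, an F1 hybrid of a C57BL/6J and a CAST parent. No treatment or altered gene is given, and there is 1 group with 2 replicates. The label of replicate 1 mentions 3x Females and that of replicate 2 a Female, both trace to the same donor record, and whether animals were pooled is not stated, so the spread between them may be partly technical. The gene-assigned reads numbered 2740332 and 3207941. The tissue label was checked with loci chosen after their values were seen. Neuron-enriched Mir132 had 9788 and 8428 CPM, gene-assigned reads scaled to a library of 1000000, and Mir137 6565 and 8340 CPM. Mir206 of muscle had 28.8 and 31.2 CPM and Mir122 of liver 60.9 and 43.0 CPM. Not every neural locus had a high count. Mir9-1 had a mean of 22.4 CPM, below Mir206 and Mir122, and Mir9-3 one of 109 CPM. No Mir124a locus reached 10 reads in both libraries, so the check is partial.

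A microRNA is cut from a folded hairpin, first by Drosha in the nucleus and then by Dicer, and guides Argonaute proteins to messenger RNAs that pair with its seed, the stretch near its 5′ end. Sfmbt2 encodes a Polycomb-group protein with MBT repeats. In the mouse the gene is imprinted and known for expression from the paternal chromosome in extraembryonic tissue, and the microRNAs in its intron are a rodent-specific, repeat-rich cluster best known from placenta and embryonic stem cells. The deposited counts do not separate the parental alleles or the arms of a hairpin, and the mRNA of Sfmbt2 was not measured here.

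Each of the 71 members lies in a single intron, and 0 overlap an exon of any Sfmbt2 transcript. Sfmbt2 spans chromosome 2, 10370510 to 10595253, on the plus strand. The intron is intron 10 of transcript ENSMUST00000041105.6 and intron 11 of ENSMUST00000116594.8, at 10461473 to 10523944, a length of 62472 nt. The members fill 51.617 kb of it, from 10466663 to 10518279, with a median gap of 209 nt between neighbours (132 to 2575 nt). Hairpins were 73 to 127 nt long.

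The middle of the cluster is a tandem array. Its limits were set by the 10 Mir467a loci and the related Mir467b, after the counts had been seen. These 11 loci follow each other at a median step of 2454.5 nt, from 2413 nt to 4880 nt. The longest step, from Mir467a-9 to Mir467a-10, holds Gm25022 (start 10500822), which is identical to Mir467a-9 but is not a member. In 10 of 11 cases the next 2 members were a Mir466 and then a Mir669 locus, with the Mir669 start 507 to 518 nt downstream of the Mir467 start. In the remaining case, Mir467a-6, the next locus is Gm25285 (start 10491336), which is identical to Mir466c-2 but is not a member. The array covers 27.01 kb (10476346 to 10503355) and holds 33 members, with 16 members upstream and 22 downstream.

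Most hairpins of the array had an identical copy. The 9 hairpins from Mir669a-4 to Mir669a-12 were identical over 87 nt, with Mir669a-12 lying just downstream of the array (start 10503791), and 6 Mir467a hairpins were identical over 83 nt to each other and to 1 locus with a Gm symbol. Of the 33 array members 25 had an identical hairpin at another annotated locus, against 0 of 16 upstream and 1 of 22 downstream. Among all members the number was 26.

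The type of sequence is shown with relatives, the 10 loci outside Sfmbt2 whose symbols also start with Mir297, Mir466, Mir467 or Mir669. In the set of RefSeq mature microRNAs at hand (GRCm38.p6) 0 of the 71 members and 8 of the 10 relatives had an entry. This set may be incomplete, so the 0 does not show that the members lack annotated mature sequences. These 8 relatives lie on chromosomes 3, 5, 9, 10, 11 and 13 and are printed 5′ to 3′ with the seed (bases 2 to 8) in capitals. They are shown because they carry the runs of UG and CA steps that are measured in the members further on.
mmu-miR-466q: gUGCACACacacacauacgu
mmu-miR-466k: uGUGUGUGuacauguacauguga
mmu-miR-466j: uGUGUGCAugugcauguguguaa
mmu-miR-466i-3p: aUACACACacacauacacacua
mmu-miR-467f: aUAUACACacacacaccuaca
mmu-miR-467g: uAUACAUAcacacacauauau
mmu-miR-467h: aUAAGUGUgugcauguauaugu
mmu-miR-669n: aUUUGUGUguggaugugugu

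The 8 mature sequences are 20 to 23 nt long and hold 8 distinct seeds, so none of these 8 shares its seed with another.

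The members shared this composition, computed from the GENCODE hairpins. The dinucleotides TG, GT, CA and AC made up a median of 51.2% of the steps in a member hairpin (32.5% to 66.7%), against a median of 26.8% in the other 2131 loci. Only 6.10% of the other loci reached the members' median. G and C made up a median of 36.1% of member bases, from 31.5% to 43.4%, against 51.3% elsewhere. The other loci include the 10 relatives, with medians of 55.4% for the steps and 38.9% for G and C. They also include the 48 loci with Gm symbols inside the gene, with medians of 38.3% and 38.9%. The composition is thus not particular to the members. Members with and without reads overlapped on both measures. The medians of the 7 members with 10 or more reads in each library were 48.8% for the steps and 39.2% for G and C, and those of the 59 members at 0 were 51.2% and 35.6%.

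**Figure D1:**
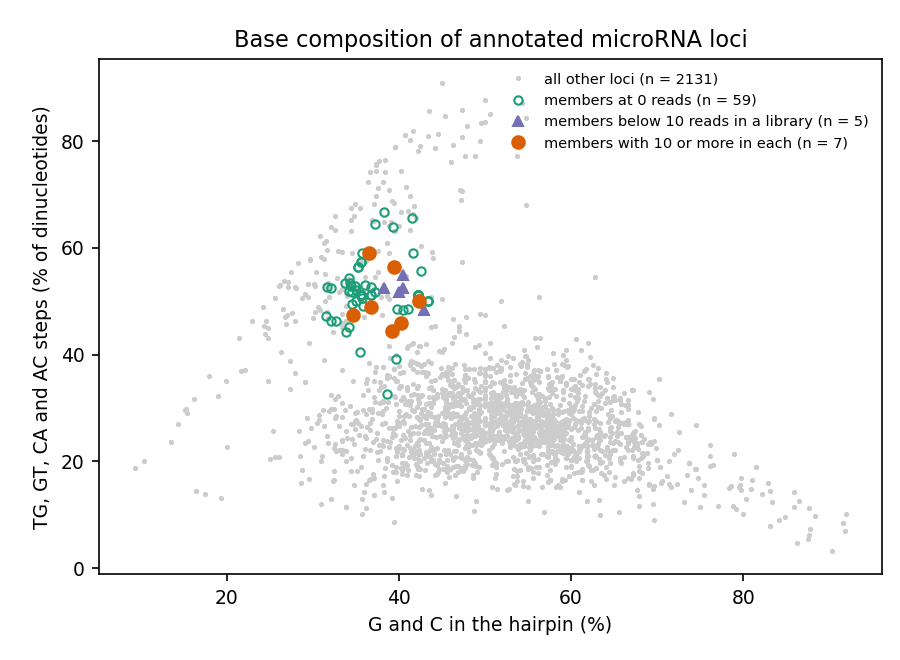
Share of TG, GT, CA and AC dinucleotides (vertical axis, %) against the share of G and C (horizontal axis, %) in each annotated hairpin, with 1 point per locus. The 71 members lie above most of the 2131 other loci on the vertical axis and on the low side of the horizontal one, and members with reads lie among members without.

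Few members had reads. The cluster held 5026 reads in replicate 1 and 5809 in replicate 2, which is 0.183% and 0.181% of the libraries (exact binomial 95% intervals 0.178% to 0.189% and 0.176% to 0.186%), or 0.182 ± 0.00165% (SD, n = 2). The intervals of the 2 libraries overlapped. A locus is called detected here when it reached 10 reads in both libraries, and 7 of 71 members (9.86%) were, against 17.7% of all 2202 loci. At 0 reads in both libraries stood 59 members (83.1%), against 65.8% of all loci. With a count of 0, as many as 3 reads that map to 1 place remain possible (1.09 CPM in replicate 1, 0.935 CPM in replicate 2). Intervals and these limits cover counting error only, as no molecular identifiers are stated.

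A count of 0 at these loci does not show that the microRNA is missing from cortex. Reads with several mapping places are set aside in the deposited tables and belong to no gene count. They numbered 3142330 in replicate 1, 40.6% of that library, and 3645348 in replicate 2, or 37.9%. How many of them came from the cluster cannot be told from the counts.

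The counted reads came from members on either side of the array. The 33 array members had 0 reads in either library. The 16 upstream members held 272 and 369 reads, or 5.41% and 6.35% of the cluster, with 5 members showing any read. The 22 downstream members held 4754 and 5440 reads, or 94.6% and 93.6%, with 7 showing any read.

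**Figure D2:**
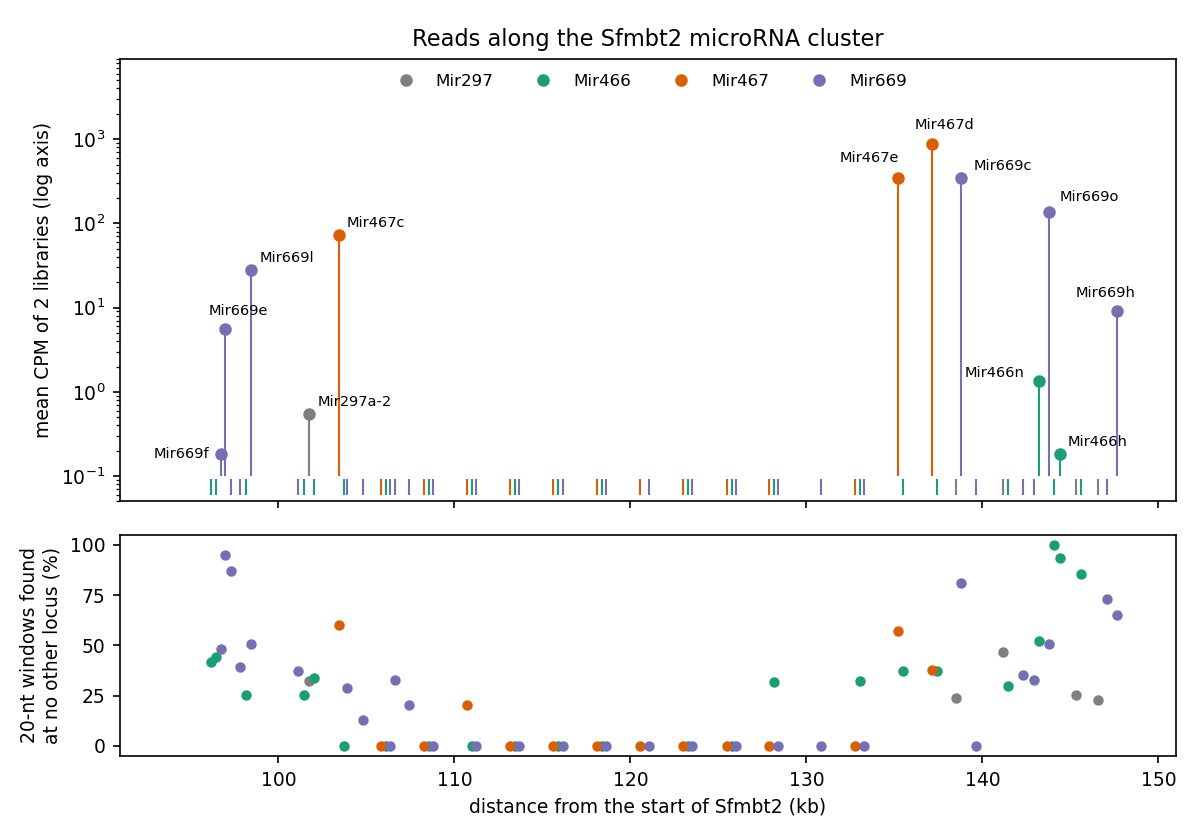
Mean CPM of the 2 libraries for each member (upper panel, log axis, with ticks at the foot for members at 0 reads in both) and the share of its 20-nt windows found at no other annotated microRNA locus (lower panel, %), by distance from the start of Sfmbt2 in kb. The 12 members with a read lie on either side of the central array, whose 33 members stand at 0 reads and mostly at 0% in the lower panel.

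Loci of the Mir467 family supplied most of the cluster's counted reads. They held 76.0% of its reads in replicate 1 and 66.1% in replicate 2 (n = 2), all of them from 3 loci, Mir467c, Mir467d and Mir467e. The other 11 Mir467 loci, the 10 copies of Mir467a and Mir467b, had 0 reads.

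Mir467d (10507630 to 10507714) had the most counted reads of any member, which leaves out reads with several mapping places, with 2643 reads in replicate 1 and 2550 in replicate 2, or 964 and 795 CPM (880 ± 120 CPM, n = 2). This placed it at rank 107 of 2202 loci by mean CPM. It alone held 52.6% and 43.9% of the cluster's reads. Mir467e (10505721 to 10505807), the next Mir467 locus upstream, had 974 and 1055 reads, or 355 and 329 CPM (342 ± 18.8 CPM). Mir467d thus had 2.71 and 2.42 times the counted reads of Mir467e in the 2 libraries. The hairpins differ by 7 edits (substitutions, insertions or deletions) over 87 nt. Where these edits lie relative to the reads was not examined, so the ratio holds for counted reads only. Mir467c (10473931 to 10474027), upstream of the array, had 201 and 233 reads, or 73.3 and 72.6 CPM (73.0 ± 0.507 CPM). Its values in the 2 libraries were nearly equal and below both other Mir467 loci in each.

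Loci of the Mir669 family held 23.9% of the cluster's reads in replicate 1 and 33.9% in replicate 2, with 4 of 29 loci detected and 23 at 0. Mir669c (10509296 to 10509404) led with 777 and 1303 reads, or 284 and 406 CPM (345 ± 86.7 CPM). Mir669o (10514300 to 10514395) had 331 and 498 reads, or 121 and 155 CPM (138 ± 24.4 CPM). Both had more CPM in replicate 2 than in replicate 1. Mir669l (10468971 to 10469068) had 58 and 111 reads, or 21.2 and 34.6 CPM (27.9 ± 9.50 CPM). Mir669h (10518155 to 10518279), the last member of the cluster, had 24 and 30 reads, or 8.76 and 9.35 CPM (9.05 ± 0.420 CPM). Just under the minimum lay Mir669e, with 9 and 25 reads. Mir669f had 1 read in replicate 1 and 0 in replicate 2, and each of the 12 Mir669a loci had 0.

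The Mir466 family, the most numerous after Mir669, had almost no counted reads. Mir466n had 4 reads in each library, Mir466h 1 and 0, and the other 21 of 23 loci 0 in both. Of the 5 Mir297 loci Mir297a-2 had 3 reads in replicate 1 and 0 in replicate 2, and the other 4 had 0. None of these values exceeds 4 reads, so no order among them can be read. The opposite strand of the members held 0 reads in both libraries. Of the 48 loci with Gm symbols inside the gene 47 had 0 reads, and Gm22072, at the upstream edge, had 0 and 5.

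Per length of hairpin, the order of the 7 detected members by mean level was Mir467d (1035 CPM per 100 nt), Mir467e (393), Mir669c (316), Mir669o (144), Mir467c (75.2), Mir669l (28.5) and Mir669h (7.24). The order of Mir467e and Mir669c depended on the measure. Their hairpins are 87 and 109 nt long. The libraries hold RNA shorter than 30 nt, so scaling by hairpin length is a description only. Per length Mir467e had 409 and 378 CPM per 100 nt in replicates 1 and 2 and Mir669c 260 and 373, nearly equal in replicate 2, while per locus Mir467e was the higher in replicate 1 and Mir669c in replicate 2. The other neighbours kept their order in both libraries. The 4 most abundant members held 94.0% and 93.1% of the cluster's reads.

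**Figure D3:**
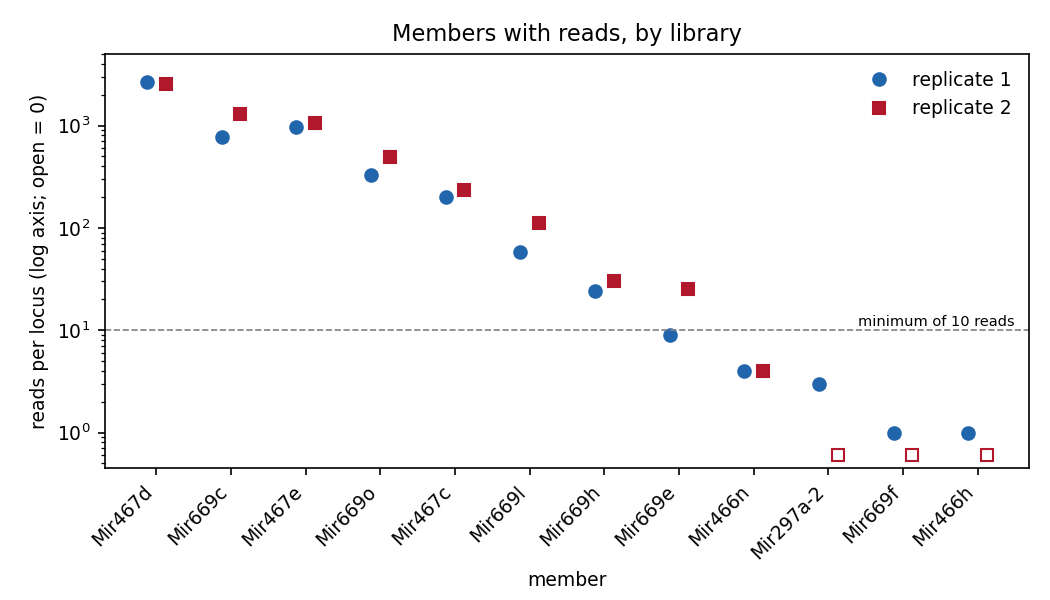
Reads per locus (log axis) in replicate 1 (circles) and replicate 2 (squares) for the 12 members with a read in either library, ordered by mean CPM, with open symbols for 0 reads and a dashed line at the minimum of 10. Mir467d leads in both libraries, while Mir669c and Mir467e change places.

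Counts were then set beside how much of each hairpin is repeated elsewhere, since a read inside a repeated stretch maps to several places. A window of 20 nt was called repeated when it was identical, on either strand, in another annotated microRNA locus, and copies outside annotated microRNA loci were not examined. At least 1 repeated window was found in 70 of 71 members (98.6%), against 49.4% of all 2202 loci. The exception, Mir466g, had 0 reads. In 32 members every window was repeated, 29 of them in the array, and these 32 had 0 reads. A 20-nt read inside these 32 hairpins maps to several places and is left out, so their 0 was largely set by the way reads are counted. The median share of single windows, those found at no other locus, was 57.4% in the 7 detected members and 0% in the 59 members at 0 reads. The 32 are most of these 59, so the 0% median was largely set in the same way and is a description only.

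Single windows did not go with reads at every member. Mir467d, the leading member, had 37.9% single windows, of 66, and shared the others with 14 loci, each inside Sfmbt2. Mir467e had 57.4%, Mir467c 60.3%, Mir669o 50.6%, Mir669l 50.6%, Mir669h 65.1% and Mir669c 81.1%. Mir669b (87.2%) and Mir466l (85.3%) had a larger share of single windows than each of these 7, Mir669i (73.1%) than 6 of them, and all 3 had 0 reads. Mir669e, with 5 repeated windows of 100, had only 9 and 25 reads.

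The same bins were counted in the other 2131 loci. Where no window was single, 0 of 32 members and 1 of 269 other loci (0.372%) were detected. Where up to 25% were single, the counts were 0 of 5 and 0 of 157. Above 25% and up to 50%, 1 of 21 members (4.76%) and 1 of 174 other loci (0.575%) were detected. Above 50% and up to 75%, the counts were 5 of 7 members (71.4%) and 4 of 162 other loci (2.47%). Above 75% but short of all windows, 1 of 5 members (20.0%) and 66 of 255 other loci (25.9%) were detected. With every window single, the counts were 0 of 1 member and 310 of 1114 other loci (27.8%). The bins hold few members and were not tested. In the bin without single windows a low number of detected loci follows largely from leaving out reads with several mapping places.

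Relatives elsewhere in the genome were no more visible. Of the 10 relatives 0 were detected. Mir466q (chromosome 3, 28419943 to 28420018) had 3 and 0 reads, and the other 9 had 0 in both libraries, Mir466k, Mir467f, Mir467h and Mir669n among them. Their median share of single windows was 70.0%, above the members' 22.8%.

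Among other polycistronic clusters, the Mirg cluster of the imprinted Dlk1-Dio3 region on chromosome 12 and the Mir17-92 cluster of chromosome 14 were set beside it as counts and shares, without a test. In the Mirg cluster 34 of 37 loci (91.9%) were detected, with 8.29% and 9.09% of gene-assigned reads, and 32 of the 37 held no repeated window. In the Mir17-92 cluster 4 of 6 loci were detected, with 0.399% and 0.360% of reads, and 4 of the 6 held no repeated window. The Sfmbt2 cluster, with 71 loci, held a smaller share of counted reads than the 6 loci of Mir17-92 in both libraries. Only 1 of its 71 loci held no repeated window. Reads with several mapping places are left out, so these shares do not rank the clusters by abundance. The median of the detected members was 138 CPM, close to the 149 CPM over all detected loci.

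Between the libraries, members differed about as often as detected loci in general. Library sizes were scaled by TMM (trimmed mean of M values) before ratios were taken. The test was an exact binomial test per locus, two-sided, with Benjamini-Hochberg adjusted p-values for the 389 detected loci, and it compares these 2 libraries only. By this test 4 of 7 members differed, against 58.4% of all detected loci, with 2 members higher in replicate 2 (28.8% of all) and 2 lower (29.6%). These shares are near the background, and the p-values cover counting error, not the spread between animals. In replicate 2 Mir467d was lower, by a log2 ratio of −0.45 (95% interval −0.53 to −0.37, adjusted p = 1.01e-28), and Mir467e was lower by −0.28 (−0.41 to −0.16, adjusted p = 2.49e-05). Mir669c was higher, by 0.35 (0.22 to 0.48, adjusted p = 2.88e-07), and so was Mir669l, by 0.54 (0.066 to 1.02, adjusted p = 0.0415). Mir669l did not pass when loci with as little as 1 read in each library were tested too (adjusted p = 0.0609). The ratio of Mir669o was 0.19 (adjusted p = 0.104), of Mir467c −0.19 (0.257) and of Mir669h −0.078 (0.914), and these did not pass.

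When libraries were scaled by their totals alone, 159 detected loci were higher and 77 lower, against 112 and 115 with TMM, and the median of all detected loci moved up by 0.17. Mir669h then turned positive (0.095) and Mir467e no longer passed (−0.11, adjusted p = 0.123), while Mir669o did (0.36, adjusted p = 0.000763). The ratio of Mir467d to Mir669c needs no scaling, and it was 3.40 in replicate 1 and 1.96 in replicate 2. The ratios of the 7 members lay between −0.45 and 0.54, within 1.5-fold in 7 of 7, which held for 67.4% of all detected loci (the SD of the log2 ratio was 0.36 over members and 0.70 over all). The summed cluster had a ratio of −0.19 (−0.25 to −0.14), which was −0.018 with library totals alone and 0.052 without Mir467d. The median over members was −0.078, beside −0.0098 over all detected loci.

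**Figure D4:**
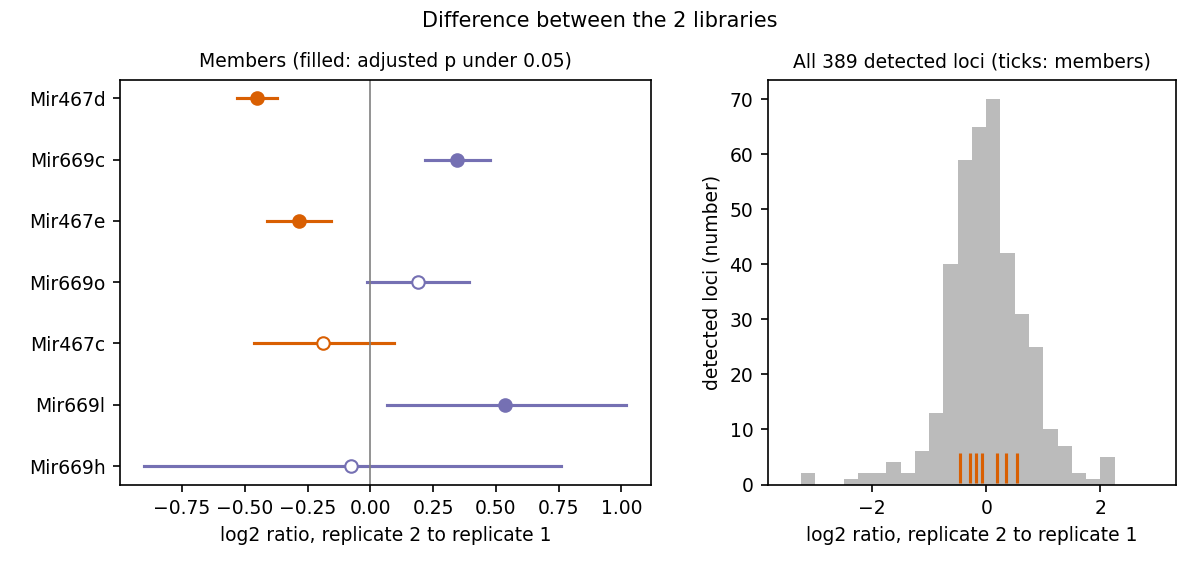
Left, log2 ratio of replicate 2 to replicate 1 with its 95% interval for the 7 detected members, filled where the adjusted p was under 0.05. Right, the ratios of all 389 detected loci as a histogram, with ticks for the members, which lie between −0.45 and 0.54.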

How the data were processed

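Small RNA libraries from 2 replicates of 1 group were analysed. The authors deposited whole read counts per microRNA gene, made on mm10 with GENCODE M21 per the file lists that came with them; the sources used here do not give the aligner, the counter or the trimming. Of 3 unnamed count columns, column 3 (reads on the RNA strand, judged from the values) was used. The 4 rows without a gene were dropped, and the gene-assigned share was 35.4% and 33.3% of all reads. CPM scales these reads to 1000000. Loci, Sfmbt2 exons and hairpin sequences were taken from GENCODE M21. Detection required 10 reads in both libraries. TMM factors came from edgeR 4.0.16 over detected loci, and exact binomial tests from SciPy 1.17.1 with a threshold of 0.05. On simulated counts 90.5% of 2-fold changes were recovered, with 6 false calls among 185 unchanged loci. The simulated counts held counting error only and were compared with library totals, without TMM. Their rate of false calls therefore does not describe the 2 real libraries. Alternatives were DESeq2 1.42.0 size factors, library totals, minimums of 1, 5 and 50 reads, the column without strand, stretches of 18 and 22 nt, and each replicate left out.

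The cluster and the lists were chosen with earlier results of these data known, and the rule for members uses no measured value. Named loci were the detected members, the 5 others with most reads, members past the test, and Mir466q, the only relative with a read. Further loci are named as examples chosen after their values were seen.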

Additional observations from a re-analysis of the deposited data

How the results depend on the processing

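The number of detected members was 6 to 9 under every read minimum tried, 7 to 8 with a replicate left out and 7 in the column without strand, and 0 relatives were detected under the read minimums and in that column. The cluster's mean share of 0.182% became 0.196% in the column without strand, which has fewer gene-assigned reads, 0.0626% of all reads, and 0.0943% without Mir467d. The summed log2 ratio of −0.19 was −0.018 with library totals alone and reversed to 0.052 without Mir467d. Of 41 ratios of single members under other scaling, minimums or the other column, 37 kept their direction and side of the threshold. The exceptions were Mir467e, Mir669o and Mir669h (which reversed to 0.095) with library totals alone, and Mir669l when 1 read in each library sufficed, as more loci were tested. Members past the test numbered 4 throughout, or 3 with that minimum. With totals alone 3 were higher and 1 lower, and over all loci 159 were higher and 77 lower, against 112 and 115. No paired analysis was possible because there is 1 group. For loci at 0 reads the 3-read limit covers singly mapped reads only, and in 32 of these 59 members every window was repeated.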
